A study of Arabidopsis thaliana with 12 samples.

Results

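A set of 70 nuclear genes was higher in snap33 than in wild-type Arabidopsis thaliana seedlings at 5 d and lower at 12 d. The genes were picked from the measured values. Levels are given in CPM, which are the reads of a gene divided by all reads assigned to genes in its library, multiplied by 1000000, and are not corrected for gene length. A gene entered the set if its highest group mean was at least 10 CPM, and if log2(mean CPM + 1) was at least 0.5 higher in snap33 at 5 d and at least 0.5 lower in snap33 at 12 d. Of the 32744 genes counted, 32548 were nuclear and 13724 of these reached 10 CPM, so the set holds 0.51% of the expressed genes. The 5 d condition alone was met by 1230 expressed genes and the 12 d condition by 2308. The opposite combination, lower at 5 d and higher at 12 d, was met by 62 genes, while 613 were higher and 252 lower at both ages.

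The product of SNAP33, a plasma membrane t-SNARE, helps to fuse secretory vesicles with their target membrane and takes part in forming the cell plate. RNA was sequenced from untreated whole seedlings of wild type and of a snap33 line described as a T-DNA insertion knock-out, 3 libraries for each genotype at 5 d and at 12 d. Plants grew on solid medium in long days, with no further allele or agent in either genotype. The labels date the planting of wild type of both ages and of the younger snap33 plants to 29 March, which is 5 to 7 days before the first harvests and 12 to 14 days before the last. For the older snap33 plants they give 9 March, 32 to 34 days before harvest, so at 12 d planting date and genotype cannot be told apart. The hour of harvest is not given in the sources used here. Libraries held 4304441 to 5754570 gene counts. SNAP33 itself had 95 to 168 counts in the wild-type libraries, 1 to 8 in snap33 at 5 d and 14 to 16 in snap33 at 12 d.

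Members described below include enzymes of starch breakdown, genes of phosphate starvation, a jasmonate repressor and wall enzymes, and no test asked whether any such group is enriched. Leaves store starch in the chloroplast by day and break it down at night: dikinases phosphorylate the granule, amylases release maltose, and enzymes of the cytosol convert the maltose to sugar phosphates. Plants short of phosphate exchange membrane phospholipids for galactolipids, secrete nucleases, and make non-coding RNAs of the IPS1 and AT4 family. These RNAs carry a site that pairs imperfectly with the microRNA miR399 and holds it away from its target. Jasmonate, a defence hormone of wounding and insect attack, acts by removing the JAZ repressors.

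AT5G03545, known as AT4, is the member of the set that belongs to this RNA family. Its site and that of IPS1 are shown because this stretch defines the family. The capitals mark the seed, bases 2 to 8, in the microRNA and the bases that pair with miR399b in the mimics. All sequences are from the RefSeq assembly TAIR10.1 and are written 5′ to 3′ with T for U. They lie at chr1:23345387-23345407 on the - strand, chr5:895149-895172 on the + strand and chr3:3051224-3051247 on the + strand, in the order shown.
miR399b: tGCCAAAGgagagttgccctg
AT5G03545 site: ttGGGCAACTtcgaTCCTTTGGCA
IPS1 site: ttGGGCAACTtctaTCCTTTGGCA
Each site pairs with 18 of the 21 bases of miR399b with 4 unpaired bases between the paired stretches, a mismatch and a bulge of 3 bases. The 6 mature miR399 sequences in the annotation, a to f, share the same seed.

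Stretches of the 250 bases before the gene start are shown for genes whose values are described below, with a searched motif in capitals on either strand. BAM5, JAZ9 (TIFY7 in RefSeq) and ESM1 hold CACATG or its reverse complement CATGTG, letters that MYC factors of jasmonate signalling can bind. PHS2 holds the G-box CACGTG, and AT5G03545 holds GNATATNC, the P1BS motif of phosphate starvation genes. The AT5G03545 stretch also holds CACATG, left in lower case. The window of JAZ9 also holds GNATATNC, outside the stretch shown. The stretches lie at chr4:8669737-8669776 (-), chr1:26654490-26654528 (+), chr3:4729347-4729392 (+), chr3:17306841-17306883 (-) and chr5:894536-894581 (+).
BAM5: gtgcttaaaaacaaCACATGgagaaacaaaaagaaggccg
JAZ9: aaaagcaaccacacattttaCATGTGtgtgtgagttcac
ESM1: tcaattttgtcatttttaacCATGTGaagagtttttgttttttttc
PHS2: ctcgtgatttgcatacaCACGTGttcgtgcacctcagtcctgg
AT5G03545: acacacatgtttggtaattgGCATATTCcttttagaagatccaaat
A match of this kind describes the letters and is not a measured binding site.

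Over all 70 genes the 5 d difference ran from 0.50 to 2.28 (median 0.66) and the 12 d difference from -2.32 to -0.51 (median -0.74) in log2(mean CPM + 1). Most sat close to the conditions, since the smaller of the 2 differences had a median of 0.59 and reached 0.7 in 16 genes. Just inside the 5 d limit were AT5G44050 (0.500), IRT3 (0.503) and AT4G09830 (0.508), and just outside TAP38 (0.498), GH9B1 (0.496) and AT3G13275 (0.494). At the 12 d limit AT5G24155 (-0.507), AT3G54366 (-0.515) and DPE2 (-0.521) were inside, and UGT73C6 (-0.499), PYL7 (-0.482) and AT4G16140 (-0.480) outside. At the abundance limit AT1G70820, AT2G34170 and AT5G42200 were inside with 10.0, 10.3 and 10.4 CPM, and UVR3, MES8 and AT1G68850 outside with 9.61, 9.56 and 9.31 CPM.

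The counts for the genotype comparisons describe the choice of genes and carry no test. By edgeR 59 of the 70 were called higher at 5 d, where 8.22% of all tested genes were, and 0 lower, where 4.77% were. At 12 d 68 were called lower beside 20.5% of all genes, and 0 higher beside 21.1%, and the 2 not called were AMY3 and PI. At both ages 57 were called, beside 0.913% of all tested genes (172) called higher at 5 d and lower at 12 d. All 3 snap33 libraries were above all wild-type libraries at 5 d in 62 members (17.3% of expressed genes), and all below at 12 d in 62 (28.6%). The groups were apart in this way at both ages in 55 members (3.17% of expressed genes).

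**Figure D1:**
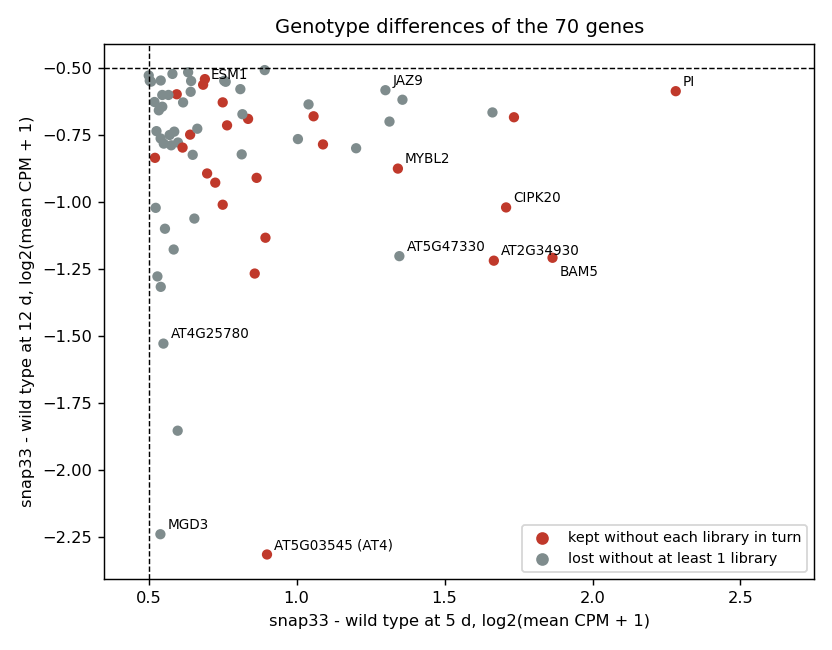
Difference between snap33 and wild type in log2(mean CPM + 1) at 5 d (horizontal axis) and at 12 d (vertical axis) for the 70 genes. Dashed lines are the limits of 0.5 and -0.5; red points are the 24 genes that met the conditions without each library in turn, and many points crowd the upper left corner near the limits.

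Enzymes at several steps of starch breakdown were in the set: SEX1, AMY3, DPE2 and PHS2. BAM5, a beta-amylase, is described and counted with them, although it lies outside the chloroplast that stores leaf starch. All were singled out after their values were seen. SEX1 (AT1G10760), the dikinase that phosphorylates the starch granule, stood at 25.5, 21.9 and 21.7 CPM in the 3 wild-type libraries and 37.2, 34.9 and 37.4 CPM in the snap33 libraries at 5 d. At 12 d it stood at 39.6, 31.3 and 31.4 CPM in wild type and 19.4, 20.1 and 20.3 CPM in snap33. The libraries of the 2 genotypes were apart at both ages, with snap33 on top at 5 d (1.58-fold in mean CPM) and wild type on top at 12 d (1.71-fold).

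PHS2 (AT3G46970), the glucan phosphorylase of the cytosol, had 13.0, 11.4 and 10.2 CPM in wild type and 27.4, 26.2 and 21.6 CPM in snap33 at 5 d. Its values at 12 d were 27.5, 22.8 and 30 CPM in wild type and 17.1, 17.6 and 14.3 CPM in snap33. Mean levels were thus 2.17-fold higher at 5 d and 1.64-fold lower at 12 d, again without overlap. DPE2 (AT2G40840), which takes glucose from maltose in the cytosol, stood at 14.7, 18.4 and 18.2 CPM in wild type against 25.6, 19.8 and 33 CPM in snap33 at 5 d. At 12 d DPE2 stood at 14.8, 22.1 and 16.1 CPM against 14.7, 10.6 and 10.7 CPM. The gap at 12 d is narrow, 14.8 CPM in the lowest wild-type library and 14.7 CPM in the highest snap33 library, and DPE2 left the set without any 1 of 5 libraries.

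AMY3 (AT1G69830), an alpha-amylase of the chloroplast, overlapped between genotypes at both ages. It read 28.4, 15.8 and 16.5 CPM in wild type and 41.3, 36.0 and 27.4 CPM in snap33 at 5 d, where wild-type replicate 1 lay above snap33 replicate 3. At 12 d AMY3 read 14.4, 17.7 and 24 CPM in wild type and 15.1, 11.3 and 10.9 CPM in snap33, and it left the set without any 1 of 3 libraries of that age. BAM5 (AT4G15210), a beta-amylase outside the chloroplast, had the widest range of these genes. Wild type read 0.44, 0.75 and 0.87 CPM at 5 d and 62.5, 38.9 and 17.8 CPM at 12 d. In snap33 BAM5 stood at 6.02, 6.50 and 2.90 CPM at 5 d and 18.8, 13.4 and 17.7 CPM at 12 d. Its snap33 libraries were all above wild type at 5 d (7.49-fold in the mean), but at 12 d wild-type replicate 3 (17.8 CPM) lay below snap33 replicate 1 (18.8 CPM).

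**Figure D2:**
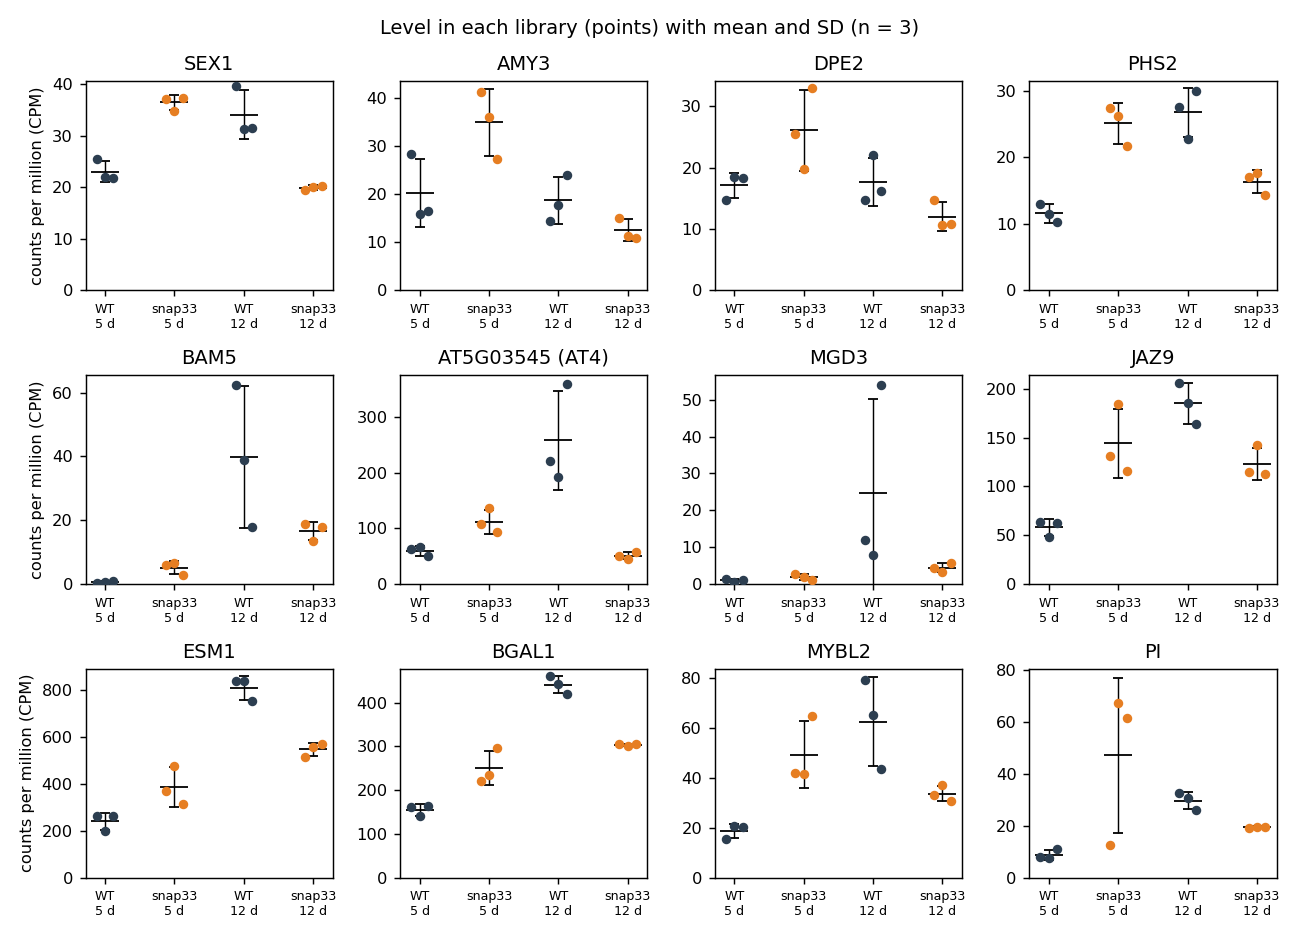
Level of 12 of the genes in CPM (vertical axis, from 0) in each library, by genotype and age. Points are libraries, the dash and bar are the mean and SD over 3 libraries (bars are not drawn below 0), wild type is dark and snap33 orange. SEX1, PHS2 and JAZ9 libraries separate by genotype at both ages, AMY3 libraries overlap at both, and 1 wild-type library of MGD3 stands at 54.0 CPM.

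The wider starch breakdown pathway was counted from a list of 22 genes written after the set had been seen, so its counts describe the pathway and support nothing further. At 5 d 10 of the 22 genes were called higher in snap33 (SEX1, SEX4, BAM1, BAM2, BAM5, BAM6, AMY3, ISA3, DPE2 and PHS2) and 0 lower, by edgeR's quasi-likelihood test at an adjusted p under 0.05. At 12 d 8 were called lower (SEX1, PWD, BAM3, BAM5, BAM9, LDA, DPE2 and PHS2) and 1, the debranching enzyme ISA3, higher. The median log2 fold change was 0.58 at 5 d and -0.25 at 12 d, beside -0.003 and -0.037 over all 18830 genes tested. Of the 22 genes 4 were called in both directions (SEX1, BAM5, DPE2 and PHS2). PWD, the second dikinase, stood at 41.1 and 53.2 CPM at 5 d and at 38.6 and 27.3 CPM at 12 d, in wild type and snap33 respectively, short of both conditions with differences of 0.36 and -0.48. BAM9, a beta-amylase with no catalytic activity, differed by -1.34 at 12 d and by 0.17 at 5 d on the log2(mean CPM + 1) scale.

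Of 20 tested clock genes 5 were called higher (RVE1, RVE4, RVE6, ZTL and CDF1) and 1 lower (GRP7) in snap33 at 5 d. At 12 d 3 were higher (TOC1, RVE6 and BOA) and 5 lower (GI, LUX, RVE1, LNK2 and CDF1), with medians of 0.32 and -0.12 at the 2 ages. RVE1 and CDF1, factors of the morning, were called in both directions. RVE1 stood at 43.2 and 60.3 CPM at 5 d and at 72.6 and 49.4 CPM at 12 d in wild type and snap33, and missed the set with a 5 d difference of 0.47. The part of the clock genes in the starch values was not tested.

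AT5G03545 had the most negative 12 d difference of the set in log2(mean CPM + 1), -2.32. The RNA stood at 62.4, 66.4 and 49.8 CPM in wild type and 107, 136 and 92.7 CPM in snap33 at 5 d. At 12 d it reached 221, 193 and 361 CPM in wild type, with replicate 3 highest, and 50.5, 45.0 and 57.7 CPM in snap33. The mean was 1.88-fold higher at 5 d and 5.06-fold lower at 12 d, and the genotypes did not overlap at either age. RefSeq lists this locus as protein coding, at chr5:894582-895517 on the + strand.

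MGD3 (AT2G11810, MGDC in RefSeq), which makes galactolipid in phosphate-starved plants, had 1.32, 0.56 and 1.09 CPM in wild type and 2.70, 1.86 and 1.11 CPM in snap33 at 5 d. At 12 d the wild-type libraries read 11.9, 7.82 and 54.0 CPM and the snap33 libraries 4.31, 3.16 and 5.77 CPM. All 3 wild-type libraries were above snap33 at 12 d, but replicate 3 was 6.9 times replicate 2, and at 5 d the genotypes overlapped. RNS1 (AT2G02990), a secreted ribonuclease, read 1.76, 1.69 and 0.65 CPM in wild type and 3.95, 3.95 and 3.34 CPM in snap33 at 5 d. At 12 d RNS1 read 19.1, 9.73 and 24.4 CPM in wild type and 7.45, 11.3 and 11.3 CPM in snap33, where wild-type replicate 2 fell inside the snap33 range. Without wild-type 12 d replicate 3 neither MGD3 nor RNS1 met the conditions of the set, whereas AT5G03545 met them without any 1 library.

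Of 18 phosphate starvation genes, also listed after the values were seen, 3 were called higher at 5 d (AT5G03545, SQD1 and PAP17) and 0 lower. At 12 d 13 were called lower and 0 higher, with a median log2 fold change of -0.94 against 0.46 at 5 d. AT5G03545 and SQD1, a sulfolipid enzyme, were the 2 called in both directions. IPS1 stood at 28.9 CPM in wild type at 12 d and 0.849 CPM in snap33, but at 0.063 CPM in wild type and 0 counts in snap33 at 5 d, so it was lower at 12 d and at or near 0 counts at 5 d. Many phosphate genes are expressed in roots, and root markers were lower in snap33 at 12 d. The summed level of 6 root hair markers was 80.5 to 150.0 CPM in wild type and 40 to 43.3 CPM in snap33, and that of 6 endodermis markers 177 to 355 against 123 to 126 CPM. All 6 markers of each list were called lower at 12 d and none was at 0 counts in any group. At 5 d the root hair sum was 32.8 to 53.0 CPM in snap33 against 62.8 to 87.4 CPM in wild type, with 5 of 6 called lower. The endodermis sum at 5 d was 120 to 146 CPM in snap33 against 153 to 166 CPM in wild type, with 0 called. In whole seedlings fewer cells of a type and less RNA per cell cannot be told apart, and the part of root tissue in the phosphate values was not tested.

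**Figure D3:**
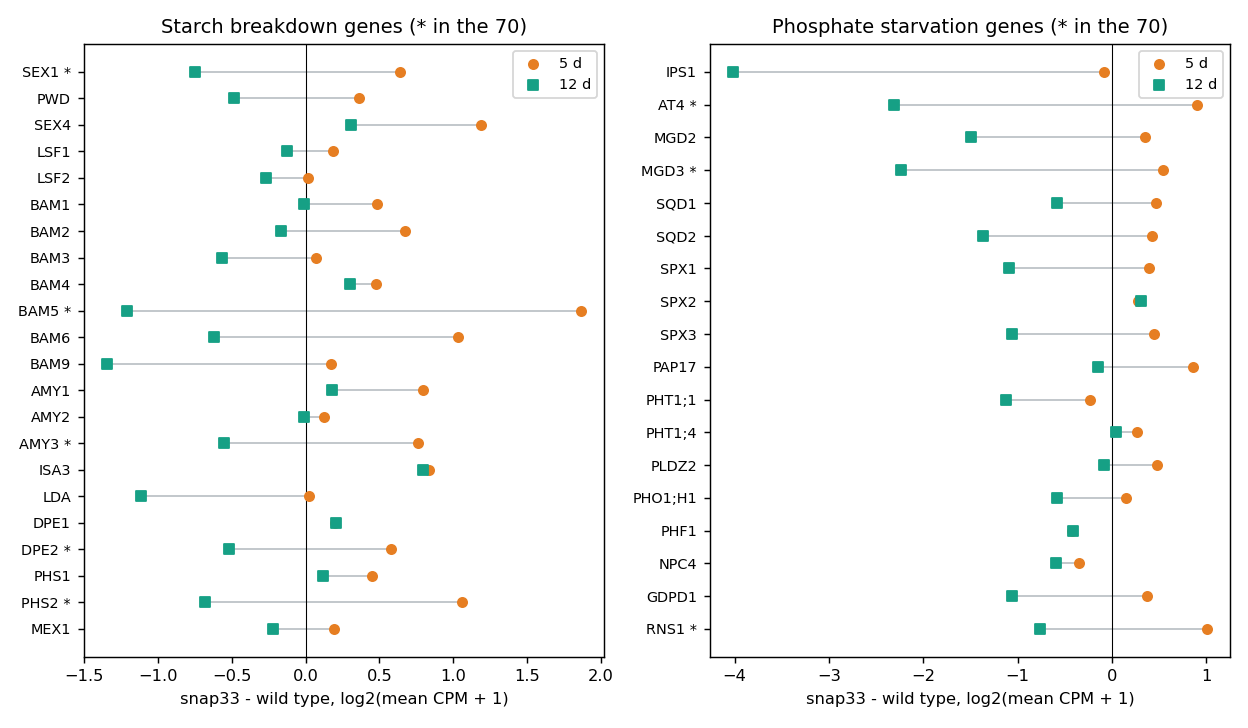
Difference between snap33 and wild type in log2(mean CPM + 1) (horizontal axis) for 22 starch breakdown genes and 18 phosphate starvation genes, with circles for 5 d and squares for 12 d. Of the starch genes 16 and of the phosphate genes 12 have fitted differences of opposite sign at the 2 ages, beside 3698 of all 18830 genes tested. Members of the set carry an asterisk, and their opposite signs are set by the choice of genes. Both lists were written after the set was seen.

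Some members act on cell wall polymers, and they were picked by hand after their values were seen, with no list of such genes counted. BGAL1 (AT3G13750), a beta-galactosidase that trims wall polysaccharides, stood at 162, 140.1 and 163 CPM in wild type and 221, 236 and 296 CPM in snap33 at 5 d. At 12 d BGAL1 stood at 461, 443 and 421 CPM in wild type and 305, 300.1 and 305 CPM in snap33, apart at both ages and close together within snap33. BGAL2 (AT3G52840), its relative, was 1.59-fold higher at 5 d and 1.79-fold lower at 12 d, with 89.2 CPM in wild-type 12 d replicate 3 against 52.2 and 47.4 CPM in the other 2, and it left the set without that library. BXL2 (AT1G02640), a beta-xylosidase, had means of 12.5 ± 1.01 and 21.6 ± 4.99 CPM at 5 d and 25.1 ± 1.03 and 15.9 ± 2.57 CPM at 12 d in wild type and snap33 (SD, n = 3). TBL36 (AT3G54260), of a family that acetylates wall polymers, and the pectin methylesterase inhibitor gene AT5G62350 were 1.59-fold and 1.46-fold higher at 5 d and 1.53-fold and 1.59-fold lower at 12 d. TBL36 libraries overlapped at 12 d, and those of AT5G62350 did not.

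JAZ9 (AT1G70700) was the only jasmonate gene of 26 listed that entered the set. The repressor stood at 63.5, 48.0 and 62.1 CPM in wild type and 132, 184 and 116 CPM in snap33 at 5 d. At 12 d it stood at 206, 185 and 164 CPM in wild type and 115, 142 and 113 CPM in snap33, below every wild-type library. Of the 26 genes 25 were called higher at 5 d and 0 lower, and 17 were called higher and 1, JAZ9, lower at 12 d (median log2 fold change 2.25 and 0.77). The other JAZ genes of the list differed at 12 d by 1.84 (JAZ1), 0.14 (JAZ2), 1.13 (JAZ5), 0.36 (JAZ6), -0.13 (JAZ7), 0.88 (JAZ8) and 0.13 (JAZ10) on the log2(mean CPM + 1) scale, against -0.58 for JAZ9. JAZ9 left the set without wild-type 12 d replicate 1.

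ESM1 (AT3G14210), a lipase-like protein that steers glucosinolate breakdown towards isothiocyanates, was the only one of 9 tested myrosinase system genes in the set. Its values were 263, 198 and 261 CPM in wild type and 371, 478 and 313 CPM in snap33 at 5 d, then 839, 837 and 752 CPM in wild type and 517, 558 and 569.6 CPM in snap33 at 12 d. Neither age showed an overlap. Of the 9 genes 7 were called higher at 5 d and 0 lower, and 5 higher (MBP1, MBP2, MVP1, NSP1 and NSP5) and 1 lower, ESM1, at 12 d (median 0.50 and 0.40). ESP, the epithiospecifier protein whose effect ESM1 opposes, was 1.62 higher at 5 d and 0.11 higher at 12 d.

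No gene of the other lists entered the set, and the genes named for them were picked with their calls known. Flavonoid genes were called higher in 14 of 19 at 5 d and 11 at 12 d (median log2 fold change 0.82 and 1.04), with CHS, the first enzyme of the pathway, the 1 called lower at 12 d. MYBL2 (AT1G71030), a repressor of anthocyanin genes outside that list, was in the set. It stood at 15.6, 20.6 and 20.2 CPM in wild type and 41.8, 41.4 and 64.6 CPM in snap33 at 5 d, and at 79.1, 65.0 and 43.4 CPM in wild type and 33.1, 37.0 and 30.8 CPM in snap33 at 12 d, apart at both ages. Cold and abscisic acid genes were called higher in 11 of 19 and lower in 0 at 5 d, and higher in 2 (RD26 and GOLS2) and lower in 5 (KIN1, COR47, ERD10, COR413PM1 and GOLS3) at 12 d (median 0.73 and -0.05). COR413PM1, a cold-induced membrane protein, was the 1 called in both directions, with differences of 0.38 and -0.85 in log2(mean CPM + 1). Of 12 salicylic acid genes 5 were called higher at 5 d (ICS1, PBS3, SARD1, WRKY70 and PR2) and 12 at 12 d, and 0 lower (median 0.47 and 3.93).

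Of 21 aliphatic glucosinolate genes 2 were higher (UGT74B1 and FMOGS-OX1) and 1 lower (MAM3) at 5 d, and 6 were higher and 5 lower (MAM1, BCAT3, CYP79F1, MYB28 and MYB29) at 12 d (median 0.23 and -0.02). Indole glucosinolate genes numbered 4 higher (CYP79B2, CYP79B3, CYP83B1 and SOT16) and 1 lower (CYP81F2) of 8 at 5 d, and 7 higher and 1 lower (MYB34) at 12 d (median 0.62 and 1.22). Wax and lipid transfer genes had 2 of 10 higher (KCS6 and LTP1) at 5 d and 5 lower (CER1, CER2, CER3, CER4 and KCS1) at 12 d (median 0.12 and -0.41). Of 9 other starch and sugar genes 6 were higher at 5 d, then 4 higher (APL3, GPT2, SWEET12 and SUC2) and 1, the sucrose exporter SWEET11, lower at 12 d (median 1.14 and 0.54).

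Only 4 genes had differences of at least 1 in both directions: BAM5, AT2G34930, AT5G47330 and CIPK20. CIPK20 (AT5G45820), a kinase that works with calcium sensors, read 1.98, 6.00 and 4.35 CPM in wild type and 8.93, 11.8 and 26.3 CPM in snap33 at 5 d. At 12 d CIPK20 read 31.8, 32.8 and 28.8 CPM against 14.9, 16.3 and 13.3 CPM, and snap33 5 d replicate 3 stood above the other 2 libraries of its group. AT5G47330, an alpha/beta-hydrolase gene, read 0.22, 0.94 and 0.65 CPM in wild type and 3.12, 2.56 and 3.56 CPM in snap33 at 5 d, then 13.8, 8.17 and 11.8 CPM in wild type and 3.92, 4.27 and 4.77 CPM in snap33 at 12 d. These low levels were apart by genotype at both ages, and the gene left the set without wild-type 12 d replicate 1.

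AT2G34930, a leucine-rich repeat gene of the disease resistance type, read 1.54, 3.19 and 3.91 CPM in wild type and 12.3, 12.8 and 8.91 CPM in snap33 at 5 d, then 22.6, 18.1 and 7.45 CPM in wild type and 7.05, 5.94 and 5.97 CPM in snap33 at 12 d. Wild-type replicate 3 was close above snap33 at 12 d. An antisense gene overlaps it over 3023 bases, and whether strand was used in counting is not given in the sources used here, so its reads cannot be assigned with certainty. The same limit holds for the 12 genes of the set that overlap a gene on the opposite strand, among them AT2G34930, MES18, ABCF2 and the RNA gene AT3G13061, which overlaps AT3G13060 over 786 bases. MES18 (AT5G58310), of the methyl esterase family, was 1.99-fold higher at 5 d and 2.36-fold lower at 12 d. ABCF2 (AT5G09930), of the ABC transporter family, differed 2.24-fold and 2.02-fold, and AT3G13061 2.13-fold and 2.67-fold, in the same directions. AT1G70820, annotated as a phosphoglucomutase, was 2.24-fold higher and then 1.91-fold lower, and at 10.0 ± 0.845 CPM in wild type at 12 d it is the gene closest to the 10 CPM limit. Among the more abundant members AT1G11850, of unknown function, was 1.46-fold higher and 1.7-fold lower, and AT1G75460, with a LON protease domain, 1.44-fold and 1.79-fold.

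PI (AT5G20240), the PISTILLATA factor that specifies petals and stamens, had the largest 5 d difference of the set in log2(mean CPM + 1), 2.28, with 1 of the 3 snap33 libraries far below the other 2. It read 7.91, 7.69 and 11.1 CPM in wild type and 12.7, 67.1 and 61.5 CPM in snap33 at 5 d. At 12 d PI read 32.5, 30.6 and 26.1 CPM in wild type and 19.0, 19.7 and 19.7 CPM in snap33. Snap33 5 d replicate 1 was only just above the highest wild-type library. The summed level of 8 phase change and flowering markers was 6.74 to 7.88 CPM in wild type and 6.97 to 8.46 CPM in snap33 at 5 d, and 47.2 to 60.8 against 50.9 to 59.0 CPM at 12 d, with 1 marker at 0 counts in each group except wild type at 12 d. PI met the conditions without each library in turn.

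The genes differed in how each genotype changed with age. The choice of genes fixes that wild type gained at least 1 more than snap33, but not which genotype moved. It also shuts out the pattern in which both genotypes lay within 0.5, which 39.1% of expressed genes showed. Also shut out are snap33 higher at 12 d with wild type within 0.5 (13.8%) or lower (0.408%). So is wild type lower with snap33 within 0.5 (4.28%). The shares of patterns set beside expressed genes below thus partly reflect the choice. In 29 genes wild type was at least 0.5 higher at 12 d than at 5 d while snap33 lay within 0.5 of its 5 d level (41.4% of the set, 7.52% of expressed genes), as for CIPK20 (2.65 in wild type, -0.07 in snap33) and JAZ9 (1.66 and -0.22). In 17 genes wild type was higher and snap33 lower at 12 d (24.3%, against 0.474%), among them SEX1, PHS2, MYBL2, AT5G03545, PI, TBL36 and PSK5, a precursor of the growth peptide phytosulfokine. In 15 genes wild type lay within 0.5 and snap33 was lower (21.4%, against 10.5%), among them AMY3, DPE2, THIC and KUP3. In 9 genes both were higher, wild type by more (12.9%, against 16.5%): RNS1, MGD3, AT2G30600, AT3G07350, ESM1, AT4G14060, BAM5, MPL1 and AT5G44260. No member was 0.5 or more lower in wild type at 12 d, where 12.2% of expressed genes were. Of the patterns with a lower wild type, the choice allows only that with snap33 lower too, which 7.48% of expressed genes showed. Under the choice of genes only wild type at 12 d or snap33 at 5 d can have the highest of the 4 group means. These were highest in 48 and 22 genes.

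The change with age averaged over the genotypes does not enter either difference, and it was tested in the edgeR fit over all genes. It was called higher at 12 d in 33 members (47.1%, beside 31.6% of all tested genes) and lower in 16 (22.9%, beside 28.4%), and 21 were not called. The limit of 10 CPM selects on age, however, and 14 members reached it at 12 d alone. All 14 were called higher, beside 80.4% of 1788 such expressed genes. Of the 54 members that reached the limit at both ages 19 were called higher (35.2%) and 15 lower (27.8%), beside 29.2% and 34.4% of 11444 such expressed genes. The other 2, AT2G25790 and AT5G42200, reached it at 5 d alone. This split was made after the values were seen, and nothing is read from the shares. Because snap33 plants of 12 d also carry the earlier planting date, age and planting date are mixed in this average.

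MPL1 (AT5G14180), a lipase of aphid defence, had an averaged log2 change of 3.31 (SE 0.26). Its wild-type libraries read 0.44, 1.5 and 1.09 CPM at 5 d and 45.0, 23.8 and 28.3 CPM at 12 d, and its snap33 libraries 2.49, 5.11 and 8.46 CPM at 5 d and 20.8, 16.7 and 22.7 CPM at 12 d, so all 6 libraries of 12 d lay above all 6 of 5 d. The averaged change was 3.38 (SE 0.30) for AT4G14060, of a lipid transport family, 2.84 (SE 0.26) for AT5G44260, a zinc finger gene, and 3.63 (SE 0.33) for BAM5. These 3 genes and MPL1 reached 10 CPM at 12 d alone, so their changes are given with no test. ESM1, which reached that limit at both ages, rose by 1.02 (SE 0.09, edgeR adjusted p = 1.85e-08).

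Among the genes called lower at 12 d in the average, those with the smallest p were AT4G25780, THIC, AT4G19820 and KUP3. In wild type alone these differed little, by -0.02, 0.05, -0.04 and 0.11 in log2(mean CPM + 1). The lower level was that of snap33 (-2.10, -1.14, -1.80 and -1.08), whose 12 d plants carry the earlier planting date. AT4G25780, a CAP-family protein gene, had an averaged log2 change of -1.23 (SE 0.13, edgeR adjusted p = 2.13e-07). Its libraries read 29.0, 20.8 and 34.1 CPM in wild type and 35.5, 45.3 and 43.4 CPM in snap33 at 5 d, then 24.9, 23.1 and 34.8 CPM in wild type and 8.43, 8.54 and 9.74 CPM in snap33 at 12 d. The snap33 libraries lay below all others at 12 d and above all others at 5 d. THIC (AT2G29630), the enzyme that makes the pyrimidine part of thiamin, changed by -0.67 (SE 0.08, edgeR adjusted p = 4.92e-07), and KUP3 (AT3G02050), a potassium transporter, by -0.60 (SE 0.08, edgeR adjusted p = 3.45e-06). AT4G19820, of the chitinase-type glycosyl hydrolases, changed by -1.05 (SE 0.14, edgeR adjusted p = 2.37e-06), and snap33 5 d replicate 1 (47.4 CPM) lay well below the 82.5 and 82.4 CPM of the other 2. Of the starch enzymes AMY3 (-0.91), DPE2 (-0.65) and SEX1 (-0.26) were called lower in the average, and PHS2 (0.18) was not called. Wild type alone did not share this direction in log2(mean CPM + 1) for SEX1 (0.55, against -0.84 in snap33) and differed little for AMY3 (-0.11, against -1.42) and DPE2 (0.04, against -1.06). The call of SEX1 was lost with DESeq2 (adjusted p = 0.0595).

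**Figure D4:**
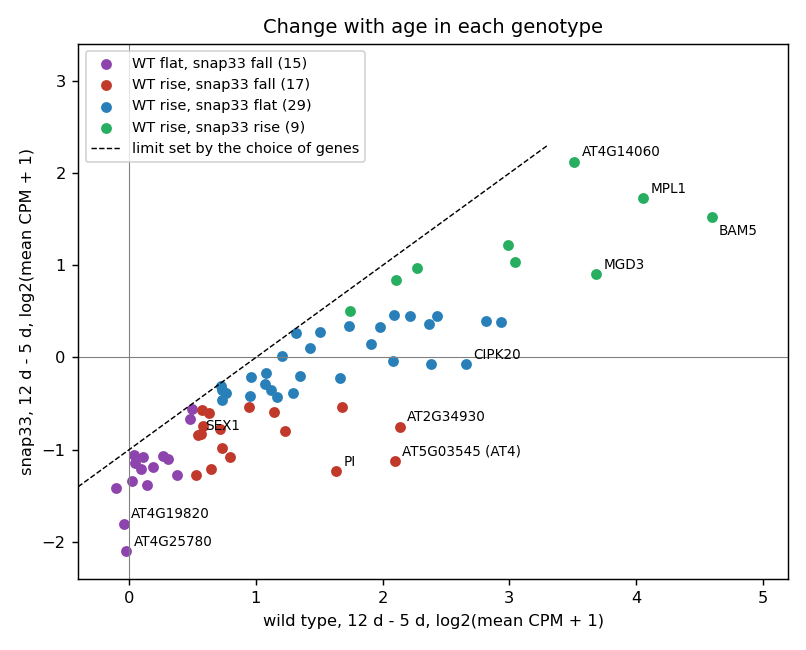
Change from 5 d to 12 d in log2(mean CPM + 1) in wild type (horizontal axis) and in snap33 (vertical axis) for the 70 genes, coloured by pattern, with a change of at least 0.5 counted as a rise or a fall. Every gene lies on or below the dashed line, 1 unit under equality, which the choice of genes sets, and the 29 blue points lie within 0.5 of the horizontal zero line.

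Markers of leaf tissue differed between the genotypes at 12 d too. The summed level of 9 leaf antenna and Rubisco genes was 20639 to 22790 CPM in wild type and 13698 to 14643 CPM in snap33 at 12 d, with 8 of 9 called lower and none at 0, but 21745 to 25143 and 20533 to 25871 CPM at 5 d with 0 called. Of 5 guard cell markers 3 (HT1, MYB60 and EPF1) were called lower at 12 d, with sums of 56.1 to 89.0 and 57.2 to 67.8 CPM. Seed storage genes stayed at or below 4.78 CPM in sum in every library. The part of these differences in the 12 d values of the set was not tested. GPAT5 (AT3G11430), a suberin enzyme of roots and seed coats, and IRT3 (AT1G60960), a metal transporter, are members. In snap33 GPAT5 and IRT3 were 1.56-fold and 1.47-fold higher at 5 d, and 2.25-fold and 1.49-fold lower at 12 d.

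Within groups the 70 genes varied more than expressed genes in general, with median coefficients of variation of 14.2% in wild type at 5 d, 16.8% in snap33 at 5 d, 15.5% in wild type at 12 d and 11.6% in snap33 at 12 d. The same medians over the expressed genes were 10.8%, 12.2%, 13.5% and 8.43%. The genes compared were not matched for abundance, on which this spread depends. Snap33 5 d replicate 1 was the lowest of its group in 31 members (44.3%, beside 32.1% of expressed genes) and the highest in 9 (12.9%, beside 27.8%). Snap33 12 d replicate 2 was the highest of its group in 32 (45.7%, beside 32.0%). Among groups with a mean of at least 5 CPM the widest spreads were those of MGD3 in wild type at 12 d (6.9-fold from lowest to highest), PI in snap33 at 5 d (5.3-fold) and BAM5 in wild type at 12 d (3.51-fold).

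All 70 genes had a window of 250 bases before the gene start in TAIR10.1. CACATG on either strand was found in 14 (20%), beside 11.0% of the windows of 13721 expressed genes and 10.9% of all 37879, and TGACG, the core bound by TGA factors, in 21 (30%, beside 19.7% and 18.1%). The evening element AAATATCT was found in 6 (8.57%, beside 4.90% and 4.35%), among them MYBL2, which holds 2, and THIC. The W-box (TTGACC or TTGACT) was in 15 (21.4%, beside 28.3% and 27.5%) and GCCGCC in 0 (beside 1.95% of expressed genes). Nearer to the other genes were the G-box CACGTG (5.71%, beside 7.64%), CCGAC of the cold response (17.1%, beside 13.2%), GGNCCC (11.4%, beside 8.50%) and AAACCCTA (2.86%, beside 3.48%). GNATATNC was in 5 members (7.14%, beside 5.58%): JAZ9, DPE2, AT5G03545, AT5G17600 and PSK5. None of these motifs contains another, and no test was made of the shares.

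By place, 15, 10, 19, 8 and 18 of the genes lie on chromosomes 1 to 5, from 0.38% (chromosome 4) to 0.686% (chromosome 3) of the expressed genes there. RefSeq lists 67 as protein coding and 3 as other RNA (AT3G13061, AT3G54366 and AT4G12917), and no gene family with a shared symbol had 3 members in the set.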

How the data were processed

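Polyadenylated RNA of whole seedlings was made into stranded single-read libraries, per the labels' protocols; the text of snap33 12 d replicate 1 alone also names a 3' format. The authors aligned the reads with STAR to TAIR10, per the submitters' processing notes, and deposited whole-number counts per gene with no normalization. The deposited files end in the summary lines of htseq-count, while its version, annotation and strand setting are not given in the sources used. Lines of unassigned reads (9.26% to 12.1% per library) were left out. The titles gave the groups, and the genotype field of wild type has knock-out wording too. Replicates are called biological in the design text, with 1 planting date per group and no word on separate cultures. The labels date replicates 1, 2 and 3 of each group to successive harvest days. The p-values thus cover the spread between these samples alone, and that spread includes any difference between the harvest days.

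The members and gene lists were chosen with earlier results of these data known, the starch breakdown and phosphate starvation lists and the P1BS motif after the members were seen. CPM used all gene counts, and values are means with SD over 3 libraries. The test across genes was that of edgeR 4.0.16, run in R 4.3.3 on the counts (quasi-likelihood, TMM, default low-count filter, 18830 genes, Benjamini-Hochberg adjustment over all of them, threshold 0.05), with all 12 libraries in 1 fit with a mean per group, and the script was tested on simulated counts. Fold changes of means are ratios of mean CPM. The SE was approximated from the log2 fold change over the root of F. All 70 members passed the filter. The averaged age contrast is independent of the genotype differences only where the groups spread alike, and the limit of 10 CPM used all groups. Names, positions and windows came from RefSeq TAIR10.1, where 32548 genes matched by locus.

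Genes were named by rule: members in a list, the 10 with the largest smaller difference, the 5 most abundant, the 4 with the smallest age p in each direction, and 3 genes on each side of each limit. Others were named after their values were seen. Alternatives for the set were TMM or upper-quartile scaling, other pseudocounts and limits, the mean of log2(CPM + 1), and leaving out each library. Alternatives for the tests were upper-quartile scaling, DESeq2 1.42.0, no filter, leaving out each library, and a replicate block. Same-numbered libraries of an age share a harvest day per the labels, and their deviations from the group means correlated at -0.38 to -0.026 over 13724 genes.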

Additional observations from a re-analysis of the deposited data

Results flagged for a closer look

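In 55 of the 70 genes every snap33 library lay above every wild-type library at 5 d and below every wild-type library at 12 d. The same held for 3.17% of expressed genes. The opposite directions at the 2 ages are set by the choice of genes, which also favours such separation. The difference between the ages was not tested, because the genes were chosen on these same values.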

How the results depend on the processing

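The set held 46 genes with a limit of 20 CPM, 16 with differences of at least 0.7 and 4 with differences of at least 1. It held 88 genes with TMM scaling (69 of the 70), 87 with upper-quartile scaling (66 of the 70), 82 with a pseudocount of 0.5 and 89 with a limit of 5 CPM. Leaving out 1 library gave 68 to 93 genes and kept 57 to 68 of the 70. Members called higher with age then numbered 31 to 34, lower with age 15 to 19, higher at 5 d 41 to 63 and lower at 12 d 57 to 69. With the mean of log2(CPM + 1) in place of log2(mean CPM + 1) the set held 67 genes (64 of the 70). A replicate block was used in the edgeR fit alone and does not enter the choice of genes. With it the 4 counts were 33, 16, 53 and 68, so it moved none by over 1.5 times. The block ended no age call of a named gene. DESeq2 gave 32, 14, 55 and 58. With upper-quartile scaling the median over all genes went from -0.037 to -0.156 at 12 d and from 0.031 to -0.073 with age, and the counts were 29, 19, 53 and 69. The age calls of 3 genes were lost under some settings, by edgeR unless named: AT2G34930 without wild-type 5 d replicate 1 (adjusted p = 0.0715) or wild-type 12 d replicate 1 (0.0586), AT5G03545 with upper-quartile scaling (0.0814) and without some libraries (to 0.0654), and SEX1 with DESeq2 (0.0595) and without some libraries (to 0.0687). No called age change of a named gene changed sign, while PI, not called, ran from -0.1 to 0.291 without 1 library. With 3 libraries a group, small differences near the limits are within the spread between libraries for some members.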
